A study of Homo sapiens with 24 samples.

Results

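Batch 2 of this study is 1 differentiation of the human embryonic stem cell line H9 (H9WA09) into sensory neurons, and its cultures exposed to TGF-β, to IL-6 or to IL-4 together with IL-13 gave 3 of the 24 RNA libraries. These 3 libraries were compared with the 9 libraries of the same 3 treatments from batches 3, 4 and 5, each batch being another differentiation of the same line. H9 is an established line, and the labels name no genetic change in it. All cultures passed through vagal neural crest cells, which the authors describe as a developmental source of airway sensory neurons. They were harvested whole, so that neurons and other cells were sequenced together. TGF-β was given at 2 ng/ml and IL-4 and IL-13 at 10 and 3 ng/ml for 5 days. The dose and duration of IL-6 are not given in the sources used here. Vehicle cultures stayed out of the comparison. The members were chosen by batch and treatment after an earlier look at measured expression had set these 3 libraries apart, so every value of the comparison is a description of 1 differentiation beside 3 others, and no p-value is given.

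Some background helps to read the genes that follow. In the embryo the neural tube, the precursor of brain and spinal cord, is lined by dividing neuroepithelial cells and radial glia that express SOX1, SOX2 and SOX3 and keep each other undifferentiated through Notch signaling. Its dorsal edge secretes WNT proteins and, at the level of the hindbrain, forms the rhombic lip, whose cells express the transcription factors OLIG3 and ATOH1. The neural crest leaves this dorsal edge and forms sensory neurons, glia and mesenchyme of the periphery. HOX genes mark the position along the head-to-tail axis, with low paralog numbers in the hindbrain and higher numbers further back.

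Levels are given as CPM, counts scaled to the size of the library after TMM normalization, and log2 levels are log2(CPM + 1). Libraries held between 33342682 and 39817784 counted reads, with 33529302 to 37496294 in the 3 of batch 2. An entry was called higher or lower when the fitted log2 fold of batch 2 over batches 3 to 5 was beyond 1 and all 3 libraries of batch 2 lay above, or all below, all 9 others. Of 27667 entries with at least 10 counts over the 12 libraries, 1352 (4.89%) were called higher and 1818 (6.57%) lower. Among the 16883 entries with a mean count of at least 50, the shares were 5.24% and 7.81%. These shares are the background for the counts of list members below. The median log2 fold of all entries was -0.05. Loci named NewGene made up 8505 of the entries and 921 of the calls and are not described. At the threshold, PDLIM5 was just inside with a log2 fold of 1.00 (217 to 241 CPM in batch 2, 74.0 to 154.5 in the others), and PMF1 lay just outside at 0.999 (17.7 to 24.6 against 8.62 to 14.4 CPM). On the lower side, ARHGAP24 was just inside at -1.001 (7.80 to 9.13 against 13.5 to 22.9 CPM) and EPOR just outside at -0.999 (4.90 to 6.81 against 9.55 to 13.97 CPM). Apart from the genes with the largest folds and the leading members of each list, genes that are named because they overlapped, or to complete a short count, were chosen after their values were seen.

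The 3 libraries of batch 2 were alike, and the vehicle library with their batch label was not like them. Over 16883 genes, the deviations of the libraries from the mean of their treatment over batches 2 to 5 correlated with a Pearson's r of 0.85 to 0.87 between the treated libraries of batch 2. The vehicle library labelled batch 2 had an r of -0.24 to -0.18 with them. Its r was 0.16 to 0.26 with the treated libraries of batch 3, 0.25 to 0.36 with those of batch 4 and -0.28 to -0.03 with those of batch 5. The vehicle library labelled batch 4 in turn had an r of 0.48 to 0.57 with the treated libraries of batch 2 and of -0.54 to -0.08 with those of its own batch. Whether the labels of these vehicle libraries were exchanged was not tested, and the batch 2 vehicle library below means the library with that label. The genes are not independent points, and these coefficients describe the libraries only. Taking deviations from a mean over batches 2 to 5 also pulls the r between batches down. For the 1352 entries called higher, the batch 2 vehicle library lay inside the range of the 9 treated libraries of batches 3 to 5 at 87.9%, and it reached the level of treated batch 2 at 18 of them. With the vehicle libraries of batches 2 to 5 added to the comparison, 51 entries were called higher and 88 lower. The differences described here are thus those of the treated cultures of batch 2, and most were not seen in the vehicle library with that label. Many of them were shared by libraries of other batches, as given below.

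**Figure D1:**
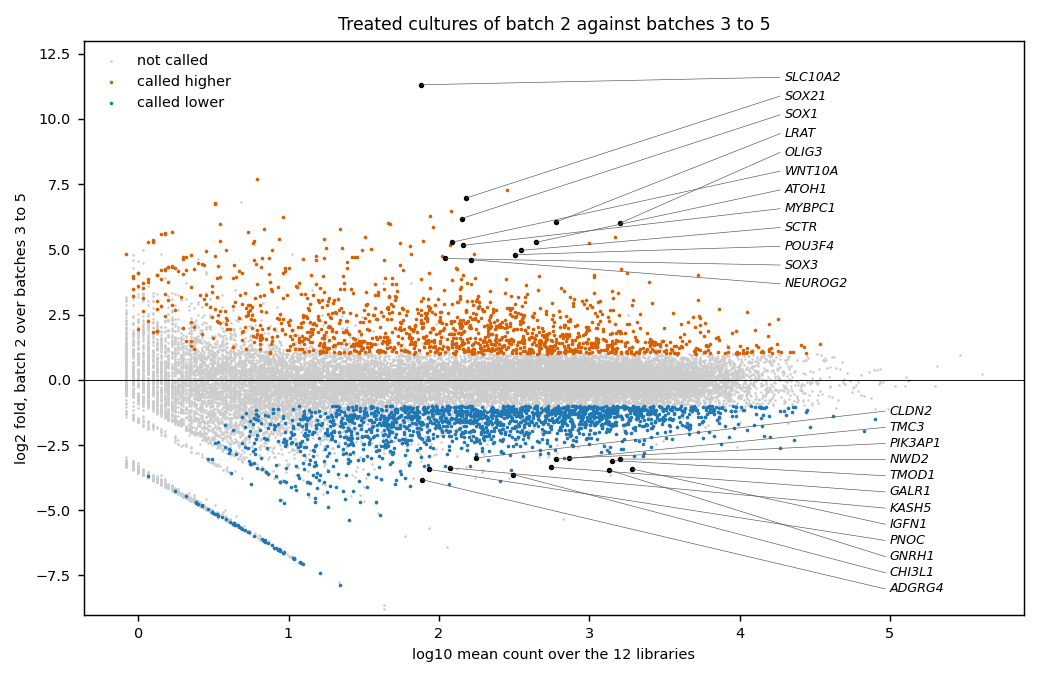
Each point is 1 of 27667 entries, with the log10 of its mean count over the 12 libraries on the horizontal axis and the log2 fold of batch 2 over batches 3 to 5 on the vertical axis. The 12 named genes in each direction run from 11.31 (SLC10A2) to 4.60 (NEUROG2) and from -3.83 (ADGRG4) to -2.99 (CLDN2), and the diagonal rows of points at the left are entries without reads in 1 of the groups.

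Transcription factors of the neural tube made up 7 of the 12 named genes with the largest folds, SOX21, SOX1, SOX3, OLIG3, ATOH1, POU3F4 and NEUROG2. OLIG3 specifies dorsal progenitors of the hindbrain and spinal cord and is on chromosome 6 (137492199 to 137494394, GRCh38.p14). Its level in batch 2 was 151 CPM under TGF-β, 178 under IL-6 and 189.9 under IL-4+IL-13. In the 9 other libraries it was at 0, 0.920 and 0 in batch 3, at 0, 10.9 and 0 in batch 4, and at 2.31, 1.24 and 19.2 in batch 5, in the same order of treatments. No library overlapped, and the log2 differences between libraries of the same treatment ran from 3.24 to 7.58. ATOH1, the factor of rhombic lip neurons on chromosome 4 (93828753 to 93830964), did not overlap between the groups either, with 35.7, 47.0 and 54.1 CPM in batch 2 against 0 to 8.99. The IL-4+IL-13 library of batch 5 and the IL-6 library of batch 4 held the highest levels of both genes among the 9. On the log2 scale OLIG3 averaged 7.44 in batch 2 and 1.30 ± 1.05 (SD, n = 3) over the means of batches 3, 4 and 5, so that the distance exceeded the spread between these batches. The log2 folds of OLIG3 and ATOH1, 6.00 and 5.27, were 7.95 and 7.25 without batch 5.

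**Figure D2:**
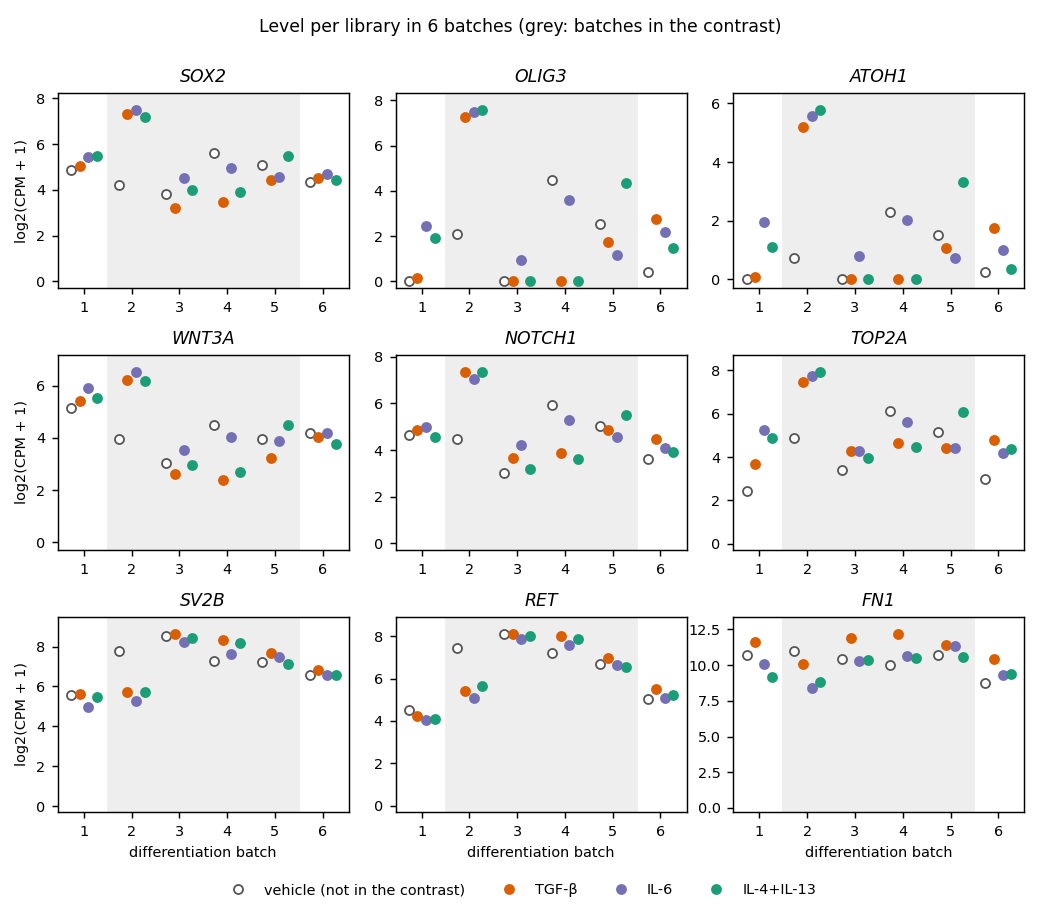
The panels give log2(CPM + 1) of 9 genes in each of the 24 libraries by batch, with filled points for TGF-β, IL-6 and IL-4+IL-13 and open points for vehicle. The 3 filled points of batch 2 lie above those of batches 3 to 5 for SOX2, OLIG3, ATOH1, WNT3A, NOTCH1 and TOP2A and below them for SV2B, RET and FN1, while the open point of batch 2 lies apart from them in each panel.

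The SOXB1 factors, which hold neural cells in the progenitor state, were all called higher. SOX2 on chromosome 3 (181711925 to 181714436) stood at 157, 179 and 146 CPM in batch 2 and at 8.35 to 44.2 in the 9 others, with a median of 20.5. Its log2 level averaged 7.33 against 4.28 ± 0.49 (SD, n = 3 batches). SOX1 was at 11.58 to 19.6 CPM against 0 to 0.496, and SOX3 at 8.86 to 12.3 against 0.0525 to 1.68. Their log2 folds were 6.18 and 4.65. SOX21, a related gene that is not a SOXB1 factor, had a higher fold than SOX1 and SOX3. It was at 13.5 to 21.5 CPM against at most 0.303, with a log2 fold of 6.96. SOX2 lies inside SOX2-OT and SOX1 overlaps SOX1-OT, and with the strandedness of the libraries unknown, reads of these pairs cannot be told apart.

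Of 17 measured central neural progenitor genes, 8 were called higher (47.1%, beside 4.89% of all entries), 2 lower and 7 neither. The 8 were SOX1, SOX2, SOX3, NES, HES5, IRX3, LHX2 and EN2. NES, the intermediate filament of neural progenitors, had a log2 fold of 1.33 with 644 to 688 CPM against 233 to 326. The 2 called lower were PAX6 (41.1 to 47.2 against 102 to 207 CPM) and OLIG1, which was near its detection limit at 0.216 to 0.512 against 0.57 to 1.29 CPM. PAX6 is a progenitor factor of several regions of the neural tube, and it was also lower than in the library labelled batch 2 vehicle (142 CPM). The ventral genes OLIG2 and NKX6-1 overlapped between the groups. The mean log2 level over the 17 genes was 3.33 to 3.41 in batch 2 and 2.07 to 2.54 in the 9 others, with 2.29 in the batch 2 vehicle library.

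After these values were seen, 32 genes of the dorsal hindbrain and rhombic lip were listed from general knowledge, so the count of calls among them supports nothing. Of the 32, 18 were called higher, none lower, and 9 overlapped between the groups. PAX6, called lower on the progenitor list above, is not among the 32. The regional factors GBX2 and EN2, which act near the boundary of midbrain and hindbrain, had log2 folds of 3.90 and 3.29. Factors of the neurons born at the rhombic lip were BARHL1 (1.73), BARHL2 (3.09), LHX2 (2.65) and LHX9 (2.14), with 60.8 to 69.6 CPM of BARHL2 in batch 2 against 2.57 to 17.2. PAX7, a factor of the dorsal neural tube and neural crest, was at 8.18 CPM or more against 1.65 or less. FOXD3 was at 2.61 to 4.07 against at most 0.285 CPM, but its annotated span overlaps FOXD3-AS1. The roof plate genes GDF7 and LMX1A, the dorsal factor MSX1 and the neuronal factor TLX3 overlapped. On a separate list fixed with the design, of 13 roof plate, floor plate and choroid plexus genes, 1 was called higher (WNT3A) and 2 lower, with a median log2 fold of -0.48. PAX3 lay below all 9 libraries by a small fold (27.1 to 30.1 against 32.1 to 58.2 CPM), and ZIC1, ZIC2 and ZIC4 lay above them by small folds of 0.94, 0.46 and 0.89.

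Of 18 radial glia and neuroepithelium genes, listed in the same way, 11 were called higher and none lower. PTPRZ1, a receptor phosphatase of neural stem cells, was at 460 to 524 CPM in batch 2 and at 5.85 to 120 in the others. FGFR3, an FGF receptor of neural progenitors and astroglia, was at 77.9 to 106 against 4.38 to 17.9 CPM. SLC1A3, the glutamate transporter of radial glia, was at 269.7 to 306 against 6.99 to 191 CPM. VIM, HES1, TNC, PROM1 and GLI3 overlapped between the groups. Of 15 genes of astrocytes, oligodendrocytes and ependymal cells, 2 were called higher and none lower.

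Early neurogenic factors were higher in part. Of 12 sensory neurogenesis factors, 6 were called higher (50% beside 4.89% of all entries) and 1 lower. NEUROG2, a proneural factor of sensory and central precursors on chromosome 4 (112513516 to 112516180), stood at 15.9, 19.7 and 15.03 CPM in batch 2 and at 0.518 to 0.892 in all 9 others, with 0.243 in the batch 2 vehicle library. Its log2 level over batches 3 to 5 was 0.76 ± 0.10 (SD, n = 3), so these batches were nearly the same. NEUROD4 (11.8 to 15.48 against 1.98 to 4.90 CPM), NEUROD6, NEUROG1 and POU4F2 were also called higher. EYA1, a factor of placodes, was called lower with 5.15 to 7.71 against 8.02 to 43.4 CPM. NHLH1, expressed in newly born neurons, had a log2 fold of 4.01 with 96.7 to 107.5 CPM against 2.76 to 14.8.

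Notch pathway genes were called in both directions. Of 15 genes, 8 were called higher (53.3%), 3 lower (20%) and 4 neither, with a median log2 fold of 1.04. The receptor NOTCH1 was at 163, 133 and 162 CPM in batch 2 against 8.22 to 44.3, and LFNG, which modifies the receptor, at 28.5 to 35.7 against 4.65 to 8.16. HES6, a gene of neuronal precursors that opposes HES1, was at 197, 238 and 267 CPM against 12.7 to 31.4, with a log2 fold of 3.74. HES5, the Notch target of neural progenitors, is listed in 2 entries with log2 folds of 5.14 and 5.24 and low levels of 5.19 to 7.92 CPM against at most 0.33. The 3 called lower were JAG2, HEY1 and DLL4, a pair of ligands and a target.

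Of 43 WNT ligands, receptors and antagonists, 15 were called higher (34.9%, beside 4.89% of all entries) and 3 lower. WNT3A, a ligand of the dorsal midline on chromosome 1 (228006998 to 228061271), was at 73.2, 91.2 and 70.4 CPM in batch 2 and at 4.29 to 21.3 in the 9 others. WNT1 was at 54.3 to 66.3 against 3.20 to 21.9 CPM. The highest folds among the ligands were those of WNT10A (5.28, 11.1 to 15.1 CPM against at most 1.54) and WNT6 (4.71, 2.23 to 3.23 CPM against at most 0.386), whose annotated spans overlap each other. WNT8B had a log2 fold of 3.23 at 0.968 to 1.51 CPM. The receptor gene FZD10 and the agonist gene RSPO2 were also called higher, as was AXIN2, a target that feeds back on the pathway (120 to 135 against 25.1 to 69.4 CPM). The 3 called lower were DKK1, a secreted antagonist, and the receptor genes FZD1 and FZD8. WNT5A, WNT2B, SFRP1, DKK2 and LEF1 overlapped between the groups.

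Anterior HOX genes were higher in part, and more posterior ones split the libraries in another way. Of 8 measured genes of paralog groups 1 to 3, 4 were called higher (50%), HOXA2, HOXA3, HOXB2 and HOXB3, and the other 4 overlapped. HOXB3 on chromosome 17 (48548870 to 48590241) stood at 386, 381 and 406 CPM in batch 2, at 21.6, 62.0 and 18.3 in batch 3, at 22.04, 123 and 21.4 in batch 4 and at 134, 90.8 and 167 in batch 5. Of 7 genes of groups 4 and 5 only HOXB4 was called, with 58.5 to 62.0 against 2.10 to 37.9 CPM. HOXB4 lies within the annotated span of HOXB3, and their reads may be shared. HOXB5 and HOXA5, named after their values were seen, did not follow. HOXB5 was at 3.90, 2.62 and 3.29 CPM in batch 2, at 0.682 to 1.48 in 4 libraries (TGF-β or IL-4+IL-13, batch 3 or 4) and at 28.8 to 46.7 in the other 5 (IL-6 of batches 3 and 4, and all of batch 5). HOXA5 was at 0.485 to 0.648 CPM in batch 2, at 0 to 0.105 in the same 4 libraries and at 8.68 to 16.4 in the same 5. The treated libraries of batch 2 thus held the highest HOXB3 of the 12 beside HOXB5 levels near the lower set.

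Genes of dividing cells were higher throughout. All 16 measured genes of DNA replication and mitosis were called higher (100%, beside 4.89% of all entries), with log2 folds from 1.21 (PCNA) to 3.00 (HMGB2) and a median of 2.35. TOP2A, the topoisomerase that untangles chromosomes before division, stood at 178, 211 and 244 CPM in batch 2 and at 14.4 to 67.1 in the 9 others. MKI67, the proliferation antigen Ki-67, was at 65.7, 65.6 and 92.2 CPM against 5.91 to 27.8, with 12.1 in the batch 2 vehicle library. The mean log2 level of the 16 genes was 5.22 to 5.51 in batch 2 and 2.82 to 4.09 in the others, where the IL-4+IL-13 library of batch 5 was the highest. From whole cultures, more dividing cells and more of these transcripts per cell cannot be told apart, and the same holds for each cell type below.

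A promoter element was found in most of the promoters at hand for these genes. They come from a list written from general knowledge, and all of its members were called. The shares below therefore describe the list and support nothing about batch 2. RefSeq promoters of GRCh38.p14 were at hand for 13 of the 16 (all but MCM5, BIRC5 and HMGB2), and the 250 bases before the transcription start were searched on both strands. The CCAAT box, bound by the factor NF-Y, was written as CCAAT or, on the other strand, ATTGG, and was found in 11 of 13 (84.6%) and in 33.04% of 27305 promoters of all genes. The cell cycle homology region (TTTGAA) was in 3 of 13 against 13.6%, and the E2F sites TTTGGCGC and TTTCCCGC in 1 and 2 of 13 against 0.553% and 1.42%. CCAAT occurs within none of the other 3 motifs. The last 100 bases before the start are shown for 4 mitotic genes that each carry more than 1 CCAAT box, which is in capitals. A match describes letters only and does not show that a factor was bound.
TOP2A, chr17:40417897-40417996, minus strand: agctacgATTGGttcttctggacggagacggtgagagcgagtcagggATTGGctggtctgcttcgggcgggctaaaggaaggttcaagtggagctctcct
CCNB1, chr5:69167050-69167149, plus strand: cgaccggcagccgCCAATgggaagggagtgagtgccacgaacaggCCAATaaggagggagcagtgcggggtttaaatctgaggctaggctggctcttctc
BUB1, chr2:110678064-110678163, minus strand: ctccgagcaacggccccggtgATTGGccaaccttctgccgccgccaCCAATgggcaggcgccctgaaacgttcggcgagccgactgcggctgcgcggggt
CENPF, chr1:214603095-214603194, plus strand: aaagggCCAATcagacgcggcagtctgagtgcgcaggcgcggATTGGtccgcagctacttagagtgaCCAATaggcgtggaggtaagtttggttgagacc

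**Figure D3:**
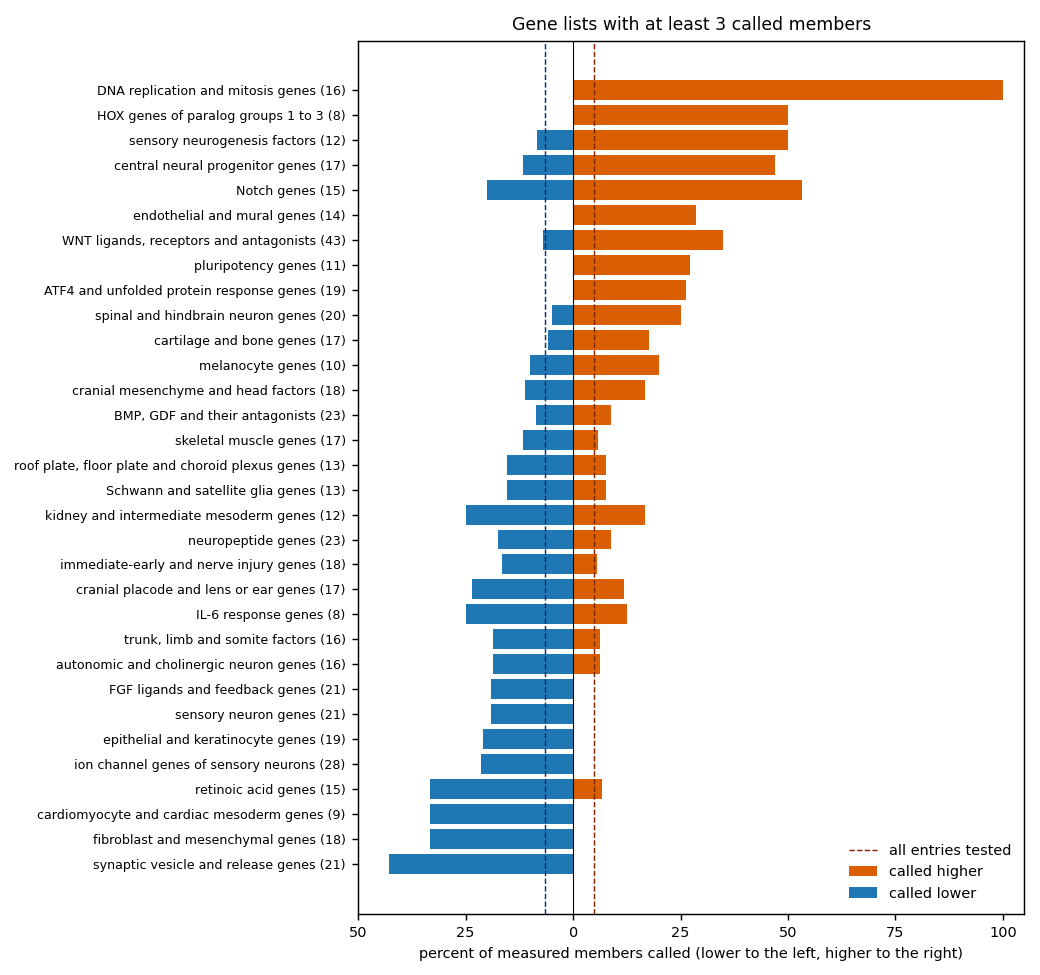
Bars give the percent of the measured members of each list (number in brackets) called higher, to the right, or lower, to the left, for lists with at least 3 calls and 8 measured members, and the dashed lines give 4.89% and 6.57% of all entries. Replication and mitosis genes reach 100% on the right and synaptic vesicle genes 42.9% on the left.

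Other genes with high folds did not belong to one tissue. SLC10A2, the sodium-dependent bile acid transporter of the ileum on chromosome 13 (103043998 to 103066417), was at 7.01, 10.55 and 8.97 CPM in batch 2, from 239 to 342 reads per library. It had no read in any of the 9 other libraries, nor in the batch 2 vehicle library. Against a floor of 3 reads per library, it was at least 106.5-fold higher in batch 2. SCTR, the secretin receptor gene, was at 32.6 to 38.9 CPM against at most 6.18, and MYBPC1, a myosin-binding protein gene of skeletal muscle, at 14.6 to 16.4 against at most 1.30. Of 17 measured skeletal muscle genes 1 was called higher and 2 lower. POU3F4, a factor of the neural tube and inner ear, was at 31.1 to 35.2 CPM against at most 5.65.

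Genes of retinoid metabolism differed in both directions. LRAT, which stores retinol as its ester, stood at 65.4, 70.9 and 62.2 CPM in batch 2 and at 0.662 to 1.44 in the 9 others, with 1.46 in the batch 2 vehicle library. CRABP1, a carrier of retinoic acid in the cell, was at 1122 to 1542 against 118 to 357 CPM. The reductase gene DHRS3, which returns retinal to retinol and is induced by retinoic acid, was at 1.82, 1.97 and 3.04 CPM against 14.4 to 19.97, and at 9.23 in the batch 2 vehicle library. ALDH1A2, which makes retinoic acid, was at 1.23 to 1.37 against 1.81 to 9.58 CPM. STRA6, the retinol uptake receptor, had log2 folds of -1.78 and -1.65 in its 2 entries. Of 15 genes on the retinoic acid list, 5 were called lower (33.3%, beside 6.57% of all entries) and 1 higher. The mean log2 level of the list was 3.995 to 4.148 in batch 2 and 4.263 to 4.458 in the 9 others. It was about as low in the treated libraries of batch 1 (4.00 to 4.172) and batch 6 (4.034 to 4.136). The receptor genes RARB and RARG overlapped.

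Among ATF4 and unfolded protein response genes, 5 of 19 were called higher (26.3%) and none lower. PSAT1 and PHGDH, enzymes of serine synthesis, were at 307 to 355 and 218 to 249 CPM against 62.6 to 115 and 57.7 to 93.6. The cystine transporter gene SLC7A11 had a log2 fold of 1.59 and SDF2L1, an endoplasmic reticulum protein, one of 1.42. Of 18 hypoxia and glycolysis genes and 18 cholesterol synthesis genes, none was called in either direction. On chromosome band 20q11.21, a region often gained in stem cell lines, 1 of 17 genes was called higher and the median log2 fold was 0.03. By chromosome, the median log2 fold of genes with a mean count of at least 50 lay between -0.04 (chromosome 10) and 0.13 (chromosome 19).

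Neuronal identity genes were present in batch 2, and several lay lower. The pan-neuronal genes TUBB3 (1007 to 1258 CPM), DCX (1424 to 1513) and MAP2 (1119 to 1159) overlapped with the other batches. Of 16 pan-neuronal genes 2 were called lower, NEFL and SNAP25, and none higher. NEFL, the light neurofilament, was at 866 to 1000 CPM against 1382 to 3765. Of 21 sensory neuron genes, 4 were called lower (19.05%), none higher, and 15 overlapped. RET, the receptor of GDNF family ligands on chromosome 10 (43077069 to 43130351), stood at 41.6, 32.9 and 49.6 CPM in batch 2, at 235 to 270 in batch 3, at 191 to 258 in batch 4 and at 91.8 to 125 in batch 5. ISL1, a factor of sensory and motor neurons, was at 19.51, 17.3 and 20.2 CPM against 41.2 to 133. DRGX, a factor of nociceptors, and SCN9A, the sodium channel NAV1.7, had log2 folds of -1.70 and -1.76. The capsaicin receptor gene TRPV1 (9.41 to 13.1 against 8.77 to 14.99 CPM), the ATP receptor gene P2RX3 (121 to 134 against 94.7 to 162), POU4F1 and NTRK3 overlapped, and NTRK2 was above all 9 by a log2 fold of 0.53.

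Synaptic genes were the list with the highest share of calls on the lower side. Of 21 synaptic vesicle and release genes, 9 were called lower (42.9%, beside 6.57% of all entries), none higher, 7 were below all 9 libraries by a smaller fold and 5 overlapped. SV2B, a synaptic vesicle glycoprotein on chromosome 15 (91099588 to 91302565), stood at 51.7, 37.8 and 52.0 CPM in batch 2, at 296 to 398 in batch 3, at 198 to 320 in batch 4 and at 139 to 202 in batch 5. Its log2 level averaged 5.58 against 7.96 ± 0.51 (SD, n = 3 batches). SYN2 was at 28.4 to 30.7 against 64.3 to 190 CPM, SYP at 111 to 125 against 207 to 405 and RIMS1 at 24.9 to 27.4 against 44.5 to 90.1. SYT1, CPLX1, CPLX2, BSN and UNC13A overlapped.

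Of 28 ion channel genes of sensory neurons, 6 were called lower and none higher. Their mean log2 level was 3.74 to 3.91 in batch 2, and lower in treated batch 1 (3.03 to 3.365) and batch 6 (3.55 to 3.72). TRPV2 was at 3.72 to 4.13 against 5.21 to 27.9 CPM, ASIC2 at 13.9 to 16.8 against 39.3 to 97.1 and HCN2 at 10.2 to 11.8 against 20.6 to 46.7. Neuropeptide genes were called in both directions, with 2 of 23 higher and 4 lower. NMU was at 10.5 to 15.7 CPM against 0.63 to 2.23. SST was at 54.2, 51.2 and 51.1 CPM against 107 to 332, GAL at 1.27 to 1.79 against 2.98 to 10.9, and SCG2, a granin of secretory vesicles, at 234 to 305 against 531 to 1420. GAD1, which makes GABA, was at 2.498 to 3.67 against 8.08 to 29.03 CPM.

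The named genes with the lowest folds were of several kinds. GNRH1, the gonadotropin-releasing hormone gene, stood at 4.49, 2.84 and 5.98 CPM in batch 2 and at 23.5 to 84.8 in the 9 others, with a log2 fold of -3.46. It was also lower than in the batch 2 vehicle library (16.5 CPM), and GNRH1 and CLDN2 were the 2 of the 24 named genes that remained called when the vehicle libraries were added. The galanin receptor gene GALR1 was at 1.70 to 2.13 against 8.93 CPM or more, and the nociceptin precursor gene PNOC at 0.147 to 0.458 against 0.835 or more. TMOD1, which caps actin filaments, NWD2 and TMC3 had log2 folds of -3.10, -3.04 and -3.02. PIK3AP1, an adaptor of PI3 kinase, was at 1.85 to 2.96 against 3.71 CPM or more. IGFN1, a sarcomere-associated protein gene, was at 4.05, 2.19 and 10.7 CPM against 38.1 to 160. CHI3L1, a secreted glycoprotein of glia and inflamed tissue, was close at one end, with 0.704 to 1.13 CPM in batch 2 and 1.29 in the lowest of the other libraries, and its batch means varied with an SD of 1.42 on the log2 scale. Its log2 fold was -3.63, and -2.06 without batch 5. That of IGFN1 was -3.42, and lay between -4.60 and -2.74 when 1 treatment was left out. KASH5, a meiotic protein, and ADGRG4, an adhesion receptor, were at most 0.566 and 0.323 CPM in batch 2 and at least 2.54 and 0.524 in the others. In treated batch 1, IGFN1 (45.1 to 140.5 CPM), CHI3L1 (23.5 to 47.4) and CLDN2 (3.17 to 10.8) were not low. The other named genes of this direction lay below all 9 libraries in treated batch 1 too, such as TMOD1 (2.87 to 3.57 CPM) and NWD2 (3.47 to 5.96).

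Mesenchymal genes were lower in part. Of 18 fibroblast and mesenchymal genes, 6 were called lower (33.3%, beside 6.57% of all entries), none higher and 9 overlapped. FN1, the fibronectin gene (chromosome 2, 215360865 to 215436068), had levels of 1089, 332 and 444 CPM under TGF-β, IL-6 and IL-4+IL-13 in batch 2 and of 1279 to 4658 in the 9 others. POSTN, a matrix protein, was at 186, 26.5 and 140 CPM against 234 to 1215, and the batch 2 vehicle library held 225. Both were highest under TGF-β and lowest under IL-6 inside batch 2. FBN1, THY1, COL6A2 and COL3A1 were the other 4 called lower, COL3A1 in both of its entries. COL1A2, LUM, DCN and PRRX1 overlapped. The mean log2 level of the list was 6.85 to 7.46 in batch 2 and 7.71 to 8.66 in the others. It was also low in the treated libraries of batch 1 (7.32 to 7.65) and batch 6 (7.005 to 7.35).

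Markers of further cell types were called in both directions, beside 4.89% higher and 6.57% lower of all entries. Of 19 epithelial genes 4 were called lower (21.1%), among them CDH1 (0.377 to 1.35 against 2.13 to 10.4 CPM) and DSP. Of 14 endothelial and mural genes 4 were called higher (28.6%), CDH5, CLDN5, KCNJ8 and ABCC9, while the defining endothelial genes PECAM1, EMCN and VWF were at most 0.539 CPM in batch 2 and overlapped. Of 12 neural crest genes only PAX7 was called higher, and SNAI2, TWIST1, TFAP2A and SOX9 were not called. Of 13 Schwann and satellite glia genes 1 was called higher (FOXD3) and 2 lower (MBP and GFRA3). Of 11 pluripotency genes DPPA4, DNMT3B and DPPA2 were called higher (27.3%), the last at no more than 0.587 CPM, and POU5F1 and NANOG were not called. DCT and KIT of the 10 melanocyte genes were called higher and SLC45A2 lower, and PMEL, TYR and MLANA were not called. Of 8 immune genes 2 were called lower (25%) and none higher. Of 9 cardiac genes 3 were called lower (33.3%), ISL1, GATA6 and MYL7, of 21 FGF ligands and feedback genes 4 (led by FGF17 and DUSP6), and of 17 placode, lens and ear genes 4 (23.5%), with 2 higher. Of 20 spinal and hindbrain neuron genes 5 were called higher, LHX1, LHX3, EVX1, BARHL1 and BARHL2, and 1 lower, GAD1. How far these other cells share in the differences described above was not tested.

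**Figure D4:**
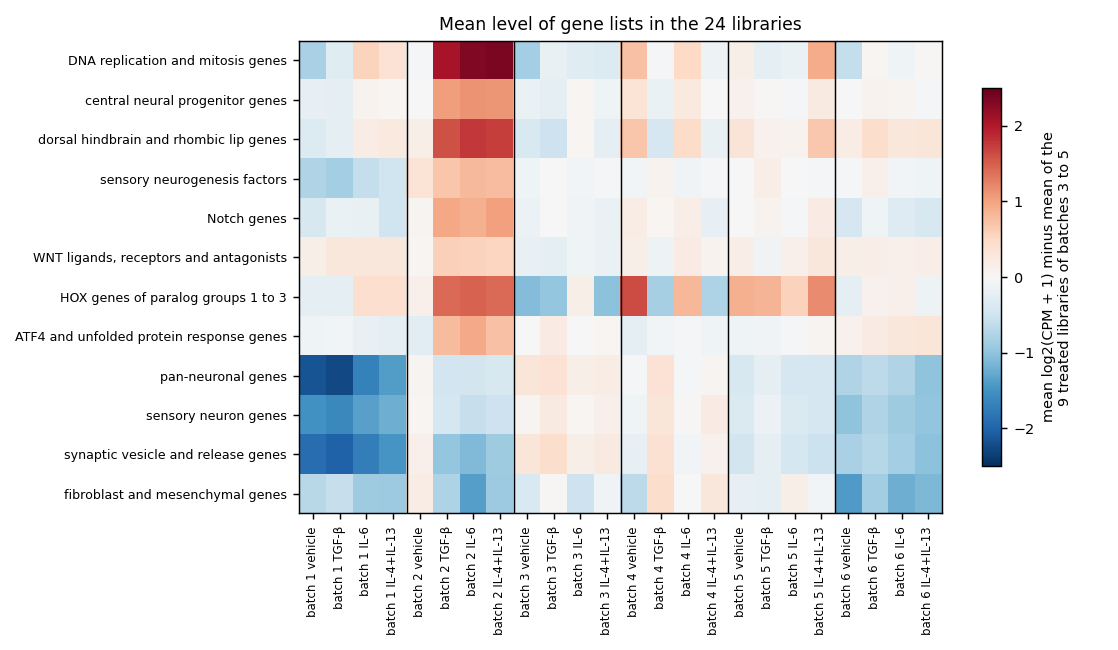
Colors give the mean log2(CPM + 1) of 12 gene lists (rows) in each of the 24 libraries (columns, by batch), relative to the mean of the 9 treated libraries of batches 3 to 5. The treated libraries of batch 2 are the deepest red for replication and mitosis genes (5.22 to 5.51, with 3.11 in the batch 2 vehicle library), and the 3 neuronal rows are lowest in batch 1, with 5.07 to 5.61 for synaptic vesicle genes.

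Libraries outside the comparison showed where else these genes were high or low. For the entries called lower in batch 2, the treated libraries of batch 1 lay beyond all 9 on the same side at 66.2% to 71.0%, and those of batch 6 at 48.6% to 60.7%. For the entries called higher, the shares were 20.1% to 28.5% in batch 1 and 18.9% to 22.6% in batch 6. OLIG3 was at 0.122 to 4.54 CPM in treated batch 1 and at 1.78 to 5.74 in batch 6. SV2B was at 30.8 to 49.0 CPM in treated batch 1, about the level of batch 2, and at 93.3 to 114 in batch 6. The vehicle library labelled batch 4 lay beyond all 9 on the batch 2 side at 44.3% of the entries called higher, the most of any library outside the comparison, and reached batch 2 at 6.58%. It held 21.4 CPM of OLIG3 and no read of SLC10A2. Within the comparison, the IL-4+IL-13 library of batch 5 was the highest of the 9 at 54.8% of the entries called higher and the lowest at 47.4% of those called lower. The genes set apart in batch 2 were thus also uneven between libraries of batches 4 and 5.

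The cytokine responses inside batch 2 were read as the level in the library of a cytokine minus the mean of the other two cytokine libraries of the same batch, which the choice of the libraries did not use. With 1 library for each treatment and batch, no test was made. The response lists were written with earlier results of these data known. Most of the IL-4 and IL-13 genes, and ITGA11 and COL10A1 of the TGF-β genes, were reported by the authors as separating the treatments. TGFBI and LOX were also named by the authors among the genes that TGF-β raised. The positive sign of all these genes was therefore largely set in advance. Whether this choice of genes favors other batches over batch 2 was not tested. All 9 TGF-β response genes were positive in each of batches 2 to 5, with medians of 1.23, 0.94, 0.99 and 1.29 on the log2 scale. ITGA11, a collagen-binding integrin gene, differed by 1.89 in batch 2 and by 1.48 to 1.51 in the others. All 8 IL-4 and IL-13 response genes were positive as well, but their median was 1.14 in batch 2 and 3.36, 3.32 and 3.13 in batches 3, 4 and 5. ALOX15, the 15-lipoxygenase gene, reached 126 CPM in the IL-4+IL-13 library of batch 2 and 406 to 436 in those of batches 3 to 5, beside at most 0.393 CPM in the TGF-β and IL-6 libraries of these batches. CCL26, the eosinophil chemokine eotaxin-3, reached 7.76 CPM against 28.98 to 56.4. CISH, a feedback inhibitor of cytokine signaling, reached 11.3 CPM against 27.5 to 31.9, and its level without IL-4+IL-13 was higher in batch 2 (4.27 CPM, mean of 2 libraries) than in the others (1.32 to 1.63). CSN1S1, a casein gene, was at 0.135 CPM in batch 2 and at 6.98 to 20.6 in the others. SOCS1 differed by 0.34 in batch 2 and by 0.10 to 0.35 in the others. The response genes of IL-6 had medians between -0.05 and 0.00 in the 4 batches, and SOCS3, the usual feedback gene, differed by 0.08 in batch 2 and by 0.07 to 0.27 in the others.

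**Figure D5:**
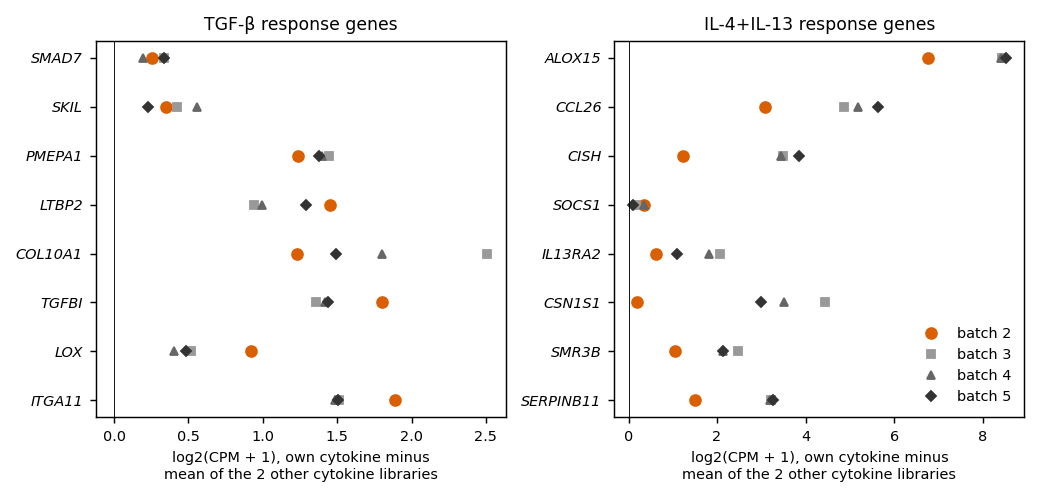
Each point is the log2(CPM + 1) of a response gene under its cytokine minus the mean of the 2 other cytokine libraries of the same batch, for 8 of the 9 TGF-β genes (left) and the IL-4 and IL-13 genes (right) and for batches 2 to 5. Batch 2 lies among or above the other batches for 6 of the 8 TGF-β genes shown and below them for 7 of the 8 IL-4 and IL-13 genes, SOCS1 being the exception.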

How the data were processed

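Whole cultures were sequenced in 24 libraries, 1 for each of 4 treatments in 6 batches. The authors deposited raw read counts per entry, unnormalized and unpooled, made by their sequencing provider. Per the submitters' processing notes, Trimmomatic 0.30 and the build GRCh38.p14 were used. Which aligner and counting tool were used, and whether libraries were stranded, is not given in the sources used here. Treated libraries of batches 2 to 5 entered 1 edgeR 4.0.16 quasi-likelihood fit (R 4.3.3, TMM, treatment and batch 2 as terms, total count of at least 10), of which only the fold is used. DESeq2 1.42.0 was an alternative. Members, gene lists and tests were chosen with earlier results of these data known. Named are the 12 called genes with the largest fold in each direction (mean count of at least 50, 1 entry, no NewGene, LOC, readthrough or pseudogene entry), up to 4 called members a list, cell type markers and response genes, and further genes only where said. A further 3 lists (dorsal hindbrain, radial glia, retinol storage) were chosen after values were seen, and the last gave 2 higher and 5 lower of 17. Of 52 lists fixed with the design, the mitochondrially encoded genes were not analysed here. For a symbol with several entries, the one with the most counts stood for the gene in list counts. The call rule was run on simulated counts that held no batch or treatment differences beyond the changes put in. That run cannot show how often ordinary differences between batches are called. Libraries of a batch share 1 differentiation and are not independent. Coordinates and promoters are from RefSeq on GRCh38.p14. A few genes are not reported here.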

Additional observations from a re-analysis of the deposited data

Results flagged for a closer look

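Dixon's criterion at the 1 in 20 level was applied to 84 groups of libraries. For 12 gene lists and 24 named genes, a group was the 9 treated libraries of batches 3 to 5. For the 12 lists, the 4 libraries of each of batches 2 to 5 were also used. In 6 groups, 1 library lay far from the rest. In 5 of the 6 it was the vehicle library of batch 2, which had the lowest mean log2 level of its batch. Its level was 3.11 for replication and mitosis genes (next 5.22), 2.29 for central neural progenitor genes (next 3.33), 3.90 for Notch genes (next 4.73), 3.62 for WNT genes (next 4.10) and 2.93 for HOX genes of paralog groups 1 to 3 (next 4.22). The other was the IL-6 library of batch 3, the highest of its batch for HOX genes of groups 1 to 3 at 2.95 (next 1.84). The groups share libraries, and the batch 2 vehicle library was known beforehand to stand apart. The number of flags is therefore a description and no test.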

How the results depend on the processing

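Counts called higher and lower (1352 and 1818) stayed within 1.5 times under other scalings, count filters, DESeq2's fit, the first entry of each symbol and each left-out batch. Without the replicate block, that is with treatment left out of the model, they were 1340 and 1831. Leaving out 1 treatment from every batch gave 1591 to 1652 and 2104 to 2703. Sums per batch gave 2236 and 4208, a fold beyond 2 gave 561 and 488, and added vehicle libraries gave 51 and 88. None of the 12 list medians recomputed and none of the 24 named genes turned its sign. Without batch 5 the log2 folds of OLIG3, ATOH1 and CHI3L1 (6.00, 5.27 and -3.63) were 7.95, 7.25 and -2.06. Medians that moved by more than the SD between batches were as follows. Central neural progenitor genes (1.00) were at 1.31 with DESeq2's fit, 0.905 without batch 3, 0.917 without batch 4, 1.225 without batch 5, 0.723 with vehicle and 1.13 to 1.31 with 1 treatment left out. Sensory neurogenesis factors (0.945) were at 0.903 with total counts, 0.737, 0.841 and 1.336 without batches 3, 4 and 5, 0.694 with vehicle and 0.857 to 1.105 with 1 treatment left out. Retinoic acid genes (-0.389) were at -0.425 with total counts, -0.298 without batch 3, -0.434 without batch 4, -0.330 with vehicle and -0.474 to -0.244 with 1 treatment left out. Notch genes (1.036) were at 1.162 without batch 5, 0.838 with vehicle and 0.955 to 1.283 with 1 treatment left out. ATF4 genes (0.755) were at 0.850 without batch 3 and 0.539 with vehicle. Without batch 5, spinal and hindbrain neuron genes (0.170) were at 0.374, HOX genes of groups 1 to 3 (1.819) at 2.887 and sensory neuron genes (-0.352) at -0.689. With vehicle, replication and mitosis genes (2.348) were at 1.915, spinal and hindbrain neuron genes at 0.347 and fibroblast genes (-0.998) at -0.531. The cause of these shifts was not tested.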
